A study of Rattus norvegicus with 8 samples.

Results

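Heart muscle carries a set of contractile, calcium-handling and hormone genes that most other tissues express at low levels. 10 of these genes were followed in rat lung: Myh6, Myl7, Myl4, Tnnt2, Tnni3, Actc1, Ryr2, Pln, Nppa and Cox8b. A probe belonged to a gene if the array's own gene name equalled one of these symbols, with case and the suffix "_predicted" ignored. This rule found 10 probes of 8 genes among 41012 probes. The array names Cox8b by an older symbol, Cox8h, and Myl4 by a gene number, and the RefSeq gene table tied 3 further probes to Cox8b and 1 to Myl4. That gave 14 probes of 10 genes, of which 12 probes of 9 genes were bright enough to be tested. The Nppa probe and 1 of the 2 Ryr2 probes were not.

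In rodents, the wall of the pulmonary veins contains a sleeve of striated heart muscle that reaches from the left atrium into the lung. It expresses atrial forms of the sarcomere proteins, so whole-lung RNA of a rat can hold heart muscle transcripts without any heart tissue in it. Sarcomeres work by sliding thick myosin filaments along thin actin filaments. Calcium released through ryanodine receptors of the sarcoplasmic reticulum binds the troponin complex and starts the cycle, and the calcium pump, held in check by phospholamban, ends it. How much of the vein wall a lung sample held is not recorded in the labels.

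Lung RNA of rats was measured on 8 two-colour arrays of 60-base probes. Rats were given normal saline or cobalt, the latter at 12.5 mg per kg body weight, over 7 days, and then spent 6, 12, 24 or 48 h in hypoxia that stood for an altitude of 30000 ft. Each array paired the hypoxia RNA of 1 pretreatment and duration with 0 h RNA of that pretreatment. There was thus 1 array per group in 8 groups, and the 4 arrays of a pretreatment shared their 0 h RNA. Strain, age, sex, number and pooling of the animals are not given in the labels. Hypoxia RNA carried Cy5 on the saline arrays and Cy3 on the cobalt arrays, and the 2 sets were on different slides and scan days. A difference between the pretreatments therefore cannot be told apart from one of slide, scan or dye orientation. A probe's dye offset of equal size on all arrays cancels in the average over both pretreatments but not in their difference.

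All ratios below are log2 of hypoxia over 0 h. An estimate is a mean of these ratios from limma with its standard error (SE). Adjusted p-values are limma's, by Benjamini-Hochberg over 28419 probes, with 0.05 as the threshold. The spread behind an SE is pooled over the saline and cobalt arrays, and is not that of a pretreatment alone. Because durations stand in for replicates, p-values reflect how far these arrays lie apart, which may be technical, and variation of the 0 h RNA is in none of them. In bulk RNA, fewer muscle cells and less RNA per cell cannot be told apart. The share of spots well above background was 57.7% to 67.2% for the green channel and 63.5% to 72.7% for the red. Within a pretreatment, the lowest correlation between 0 h channels was 0.992 for saline and 0.993 for cobalt.

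The probes with the highest ratios on single arrays are shown here 5′ to 3′ as the files give them. The first 3 lie in coding sequence, and their ends are farther apart in the genome than their own 60 bases, so each reads a joined message. In Myh6 the capitals mark the 27 bases that the array's Myh7 probe also holds, which means that the 2 cardiac myosin heavy chain probes are not independent in sequence.
Myh6 A_42_P756334: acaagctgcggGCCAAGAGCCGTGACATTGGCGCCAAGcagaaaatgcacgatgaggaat
Myl7 A_42_P808008: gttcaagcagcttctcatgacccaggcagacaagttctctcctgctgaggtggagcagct
Tnnt2 A_44_P994686: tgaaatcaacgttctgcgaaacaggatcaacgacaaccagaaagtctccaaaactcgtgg
In the coordinates of the files, whose header gives rn3 as the build, the Myh6 probe spans chr15:33060276-33060683 on the minus strand, 408 bases. The Myl7 probe spans chr14:86587423-86587828 on the minus strand, 406 bases. The Tnnt2 probe spans chr13:48899197-48899631 on the plus strand, 435 bases. Exon annotation of this build was not used here.

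The 3 Cox8b probes are shown because they do not give 1 answer. The first was designed on the mRNA and ends with its stop codon and 3 further bases, and the other 2 on an expressed sequence tag. Capitals mark 21 bases of the mRNA probe and their reverse complement in the first tag probe, so that the pair face each other on opposite strands.
Cox8b A_44_P414273: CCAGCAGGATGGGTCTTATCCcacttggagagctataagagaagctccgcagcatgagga
Cox8b A_44_P689394: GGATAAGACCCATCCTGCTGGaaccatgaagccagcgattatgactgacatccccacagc
Cox8b A_44_P689395: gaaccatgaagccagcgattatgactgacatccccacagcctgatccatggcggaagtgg
The mRNA probe lies at chr1:201207352-201207411 on the minus strand. The tag probes lie on the plus strand, at chr1:201207391-201207450 and chr1:201207411-201208612, and share 40 bases with each other on the same strand.

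In the average over both pretreatments, Tnnt2, Actc1 and Myl4 were higher under hypoxia and the mRNA probe of Cox8b was lower. In that average 6 of the 12 tested probes were called, 4 higher and 2 lower, where 32.3% of all tested probes were called, 14.9% higher and 17.4% lower. On the saline arrays 10 of the 12 were called, 7 higher and 3 lower, against 40.8% of all probes, 20.6% higher and 20.2% lower. On the cobalt arrays 3 of the 12 were called, 2 higher and 1 lower, against 20.5% of all probes, 8.57% higher and 12.0% lower. As shares of the 12, these were 50%, 83.3% and 25%, of which the last is near the share of all probes. The counts cover the members that passed the filter on dim probes, and are a description. Of all calls, 50.5% were higher on the saline and 41.7% on the cobalt arrays. With median centring in place of loess these splits became 81.4% and 24.5%, and the medians of all probes moved to 0.24 and -0.48, so that single-pretreatment values are relative to the normalization.

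**Figure D1:**
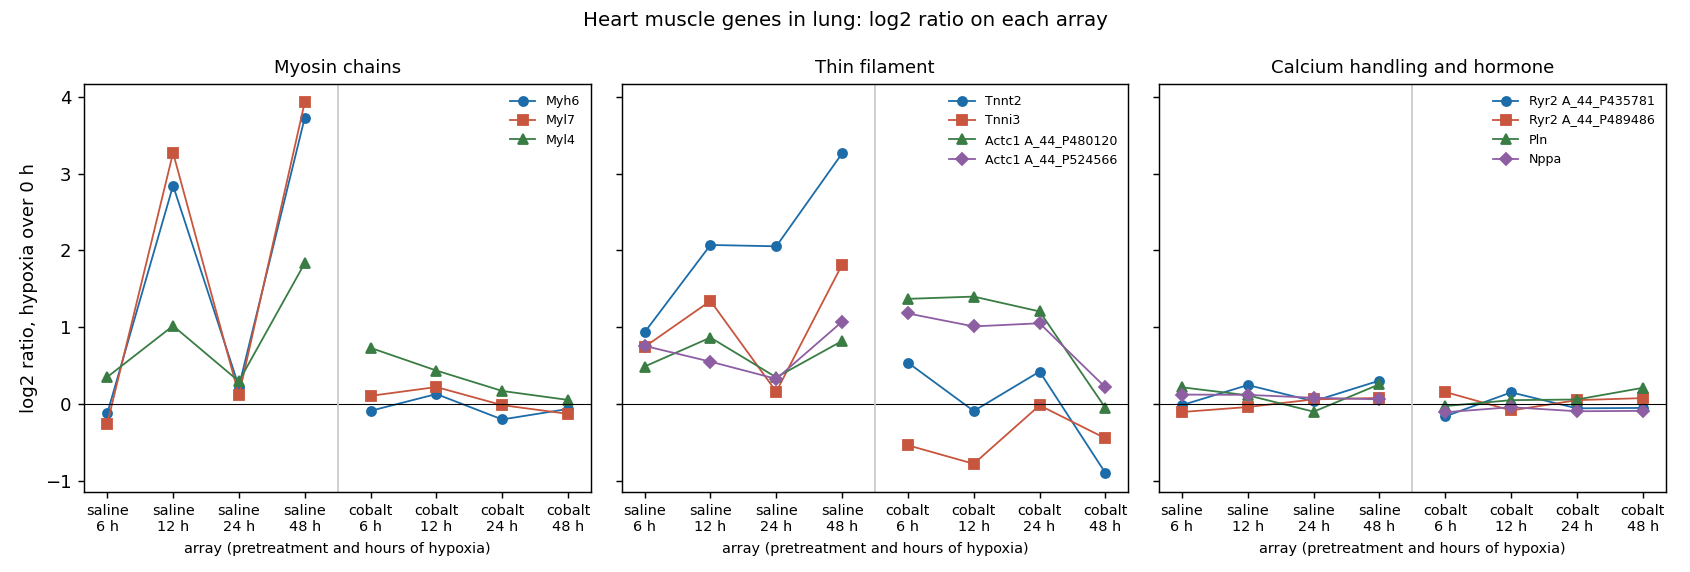
Log2 ratio of hypoxia over 0 h (y axis) on each of the 8 arrays (x axis, saline on the left and cobalt on the right of each panel), 1 marker per probe and array. Myh6 and Myl7 stand at 2.85 to 3.93 on the saline 12 h and 48 h arrays and near 0 on the other 6, while the Actc1 probes lie above 0 on 7 and 8 of the arrays with this normalization (with median centring alone their cobalt means were -0.01 and -0.14) and Ryr2, Pln and Nppa stay within 0.30 of 0. Lines join arrays of 1 pretreatment and do not stand for repeated measures of an animal.

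Myh6 encodes the alpha myosin heavy chain, the motor protein of the atrial thick filament and of the adult rodent ventricle. Its ratio was -0.12, 2.85, 0.23 and 3.73 on the saline arrays at 6, 12, 24 and 48 h. On the cobalt arrays it was -0.09, 0.13, -0.20 and -0.07. Saline 12 h and 48 h stood far from the other 6 arrays, which lay on both sides of 0.

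The signals behind these ratios show where the gene was measurable. In the hypoxia channel the mean spot signal was 53, 766, 65 and 3051 scanner units on the saline arrays and 56, 68, 58 and 64 on the cobalt arrays, over a local background of 38 to 49. In the 0 h channel it was 57, 63, 54 and 96 on the saline arrays and 92.5, 98, 107 and 110 on the cobalt arrays. Neither channel was well above background on the saline 6 h and 24 h arrays, so their ratios are not levels of the gene. On cobalt 6 h and 24 h only the 0 h channel was well above background. The standard deviation (SD) of the ratios was 1.91 on the saline and 0.14 on the cobalt arrays, and the SE pools both. The estimate for the saline arrays was 1.67 ± 0.53 (SE), 3.18-fold, with an adjusted p of 0.0299, and rested on 2 arrays. Without those arrays it was 0.05, with an adjusted p of 0.743.

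Myl7 encodes the regulatory light chain of atrial myosin. Its ratio was -0.26, 3.27, 0.11 and 3.93 on the saline arrays and 0.11, 0.22, -0.02 and -0.13 on the cobalt arrays. Again 12 h and 48 h of saline stood alone, at 9.67-fold and 15.3-fold over 0 h. Ratios on the other arrays came from low signals, which the offset of 50 draws toward 0. There the software's log ratio ranged from -1.21 on cobalt 48 h to 0.42 on saline 24 h. The hypoxia signal was 78, 1379, 93 and 7901 scanner units on the saline arrays and 59 to 69 on the cobalt arrays. In the 0 h channel of the saline arrays, which the labels give as 1 RNA, it was 75, 88, 68 and 207. That highest 0 h signal was on the same array as the highest hypoxia signal, and its part in the ratio was not tested. The saline estimate was 1.77 ± 0.59 (SE), adjusted p 0.0380, and without the 12 h and 48 h arrays it was -0.07. That SE pools an SD of 2.14 on the saline and of 0.15 on the cobalt arrays.

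Myl4 encodes the essential light chain of atrial myosin. Its ratio was 0.35, 1.02, 0.29 and 1.84 on the saline arrays and 0.73, 0.44, 0.17 and 0.05 on the cobalt arrays. All 8 lay above 0, and saline 12 h and 48 h were again the highest. The average was 0.61 ± 0.16 (SE), adjusted p 0.0160, and the saline estimate 0.87 ± 0.22 (SE), adjusted p 0.0119. Without saline 12 h and 48 h the saline estimate was 0.32, adjusted p 0.183, and without 48 h alone 0.55, adjusted p 0.0314. The cobalt estimate was 0.35 ± 0.22 (SE) and missed the threshold, with an adjusted p of 0.306. The spot was well above background in both channels of all 8 arrays.

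**Figure D2:**
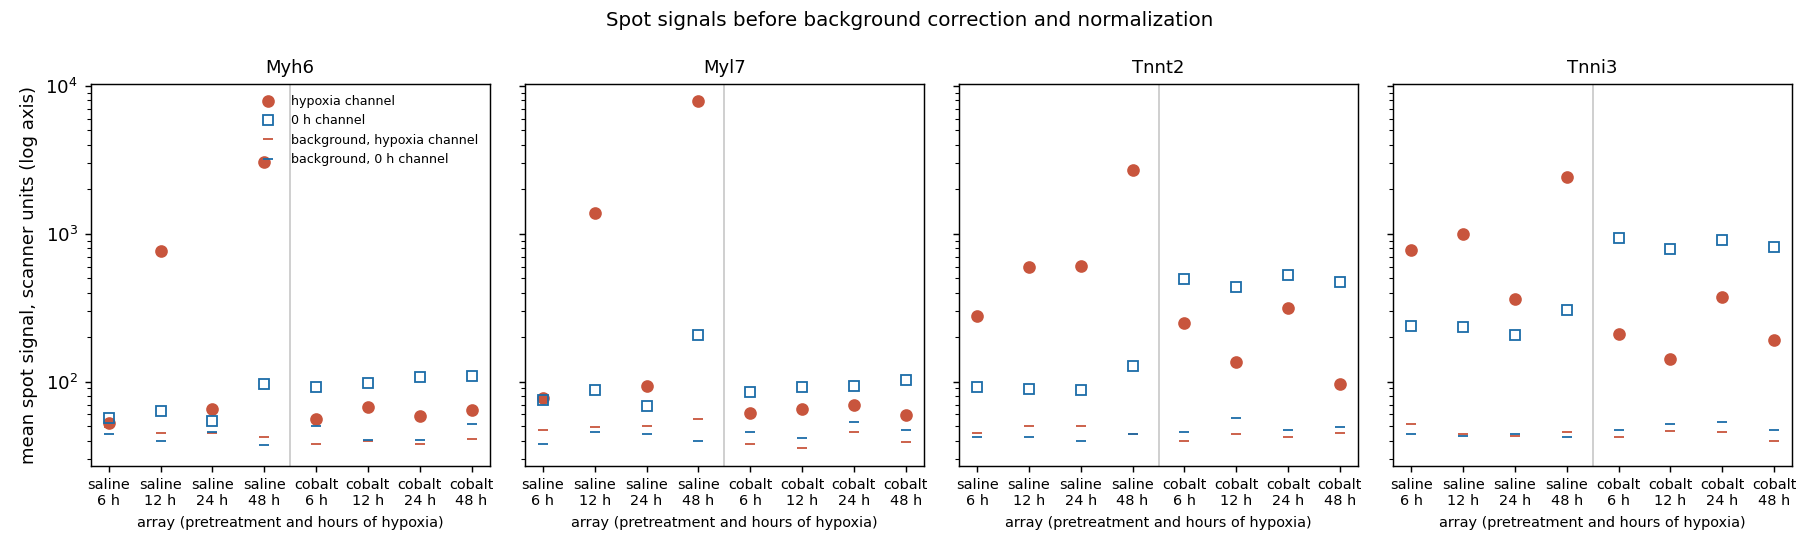
Mean spot signal in scanner units (y axis, log scale) on each array (x axis) for Myh6, Myl7, Tnnt2 and Tnni3, with filled circles for the hypoxia channel, open squares for the 0 h channel and dashes for local background. For Myh6 and Myl7 the hypoxia channel of saline 12 h and 48 h reads 766 to 7901, and every other value is at most 207, whereas Tnnt2 and Tnni3 are above background in both channels everywhere.

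Tnnt2 and Tnni3 encode the cardiac forms of troponin T, which anchors the complex to tropomyosin, and troponin I, which blocks the myosin site on actin at rest. The Tnnt2 ratio was 0.93, 2.07, 2.05 and 3.26 on the saline arrays. It was 0.54, -0.09, 0.42 and -0.90 on the cobalt arrays. The 2 sets, on different slides and with the dyes swapped, did not overlap. In the difference between the pretreatments 30.5% of all tested probes were called. The share of all probes whose 2 sets do not overlap is not given here. Unlike Myh6 and Myl7, Tnnt2 was above 0 on all 4 saline arrays, and its 24 h ratio was as high as that at 12 h. The saline estimate was 2.08 ± 0.32 (SE), 4.23-fold, adjusted p 0.00101. The cobalt estimate was -0.01 ± 0.32 (SE), adjusted p 0.990. Without saline 12 h and 48 h the saline estimate was 1.49, adjusted p 0.0261.

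The Tnni3 ratio was 0.74, 1.34, 0.16 and 1.82 on the saline arrays and -0.54, -0.78, -0.02 and -0.45 on the cobalt arrays. These sets did not overlap either, where 30.5% of all tested probes were called in the difference. The saline estimate was 1.02 ± 0.23 (SE), adjusted p 0.00612, and became 0.45, adjusted p 0.140, without saline 12 h and 48 h. The cobalt estimate was -0.45 ± 0.23 (SE), adjusted p 0.194. The average of both pretreatments, 0.28 ± 0.16 (SE), was not called, with an adjusted p of 0.200. In scanner units, the 0 h channel of Tnni3 read 208 to 303 on the saline arrays, in green, and 788 to 931 on the cobalt arrays, in red.

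The cobalt response minus the saline response was -2.09 ± 0.46 (SE) for Tnnt2, adjusted p 0.00815, and -1.46 ± 0.32 (SE) for Tnni3, adjusted p 0.00797. These were 2 of the 3 probes called in this difference among the 12, against 30.5% of all tested probes, and both were lower, as were 16.5% of all. The third was the dim Cox8b tag probe A_44_P689394, at 0.17 ± 0.06 (SE), adjusted p 0.0443, among the 13.9% called higher. Under hypoxia its spot cleared background on 0 of 8 arrays, and the call was lost under 12 alternatives, the duration block among them. For Myh6 and Myl7 the difference was -1.73 ± 0.75 and -1.72 ± 0.84 (SE), with adjusted p 0.107 and 0.148. Without saline 12 h and 48 h it was -1.50 for Tnnt2, adjusted p 0.0504, and -0.90 for Tnni3, adjusted p 0.0392. Since hypoxia RNA was in Cy5 on one set and in Cy3 on the other, pretreatment and dye cannot be told apart in these values.

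Actc1 encodes cardiac alpha actin, the main protein of the thin filament in the heart, and is also found at lower levels in other muscle. It has 2 probes in different parts of the message, 1 coding and 1 near its 3′ end. The coding probe, A_44_P524566, gave ratios of 0.76, 0.55, 0.33 and 1.07 on the saline arrays and 1.18, 1.01, 1.05 and 0.22 on the cobalt arrays. The other, A_44_P480120, gave 0.49, 0.87, 0.35 and 0.82, and then 1.37, 1.40, 1.21 and -0.05. The saline and cobalt ranges overlapped for both probes, and the lowest ratio of each was at 48 h of cobalt.

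The averages were 0.77 ± 0.11 (SE), adjusted p 0.00116, for the coding probe and 0.81 ± 0.15 (SE), adjusted p 0.00349, for the other. Both probes were called higher within each pretreatment, the coding probe at 0.68 and 0.86 on saline and cobalt arrays. The saline call of the coding probe was lost without saline 12 h and 48 h, at 0.54 (adjusted p 0.123). That of the other probe, adjusted p 0.0378, was lost in 7 of the alternatives, among them leaving out any 1 of the saline arrays, and its cobalt call without the 6, 12 or 24 h cobalt array. The cobalt estimates depended on the intensity-dependent normalization. With median centring alone they were -0.14 for the coding and -0.01 for the other probe, on a scale where the median of all probes was itself -0.48. The 2 probes differed by 0.03 on average over the 8 arrays (SD 0.27), with an exact sign-flip permutation p of 0.711, two-sided, and an adjusted p of 0.711 over the 4 probe pairs tested.

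**Figure D3:**
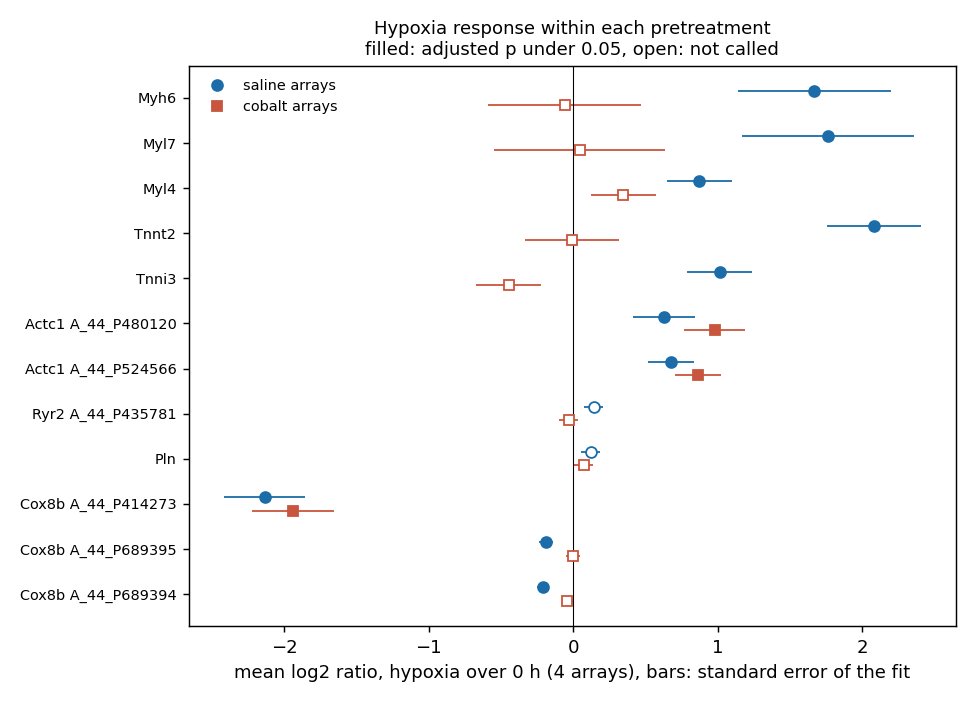
Mean log2 ratio within the 4 saline arrays (circles) and the 4 cobalt arrays (squares) for each tested probe, with the standard error of the fit as bars; filled markers passed an adjusted p of 0.05. Myosin and troponin probes are filled on the saline and open on the cobalt arrays, with the difference itself called for both troponins but not for Myh6, Myl7 and Myl4 (adjusted p 0.107, 0.148 and 0.235). The Cox8b mRNA probe and, with loess but not with median centring alone, both Actc1 probes are filled on both, and Ryr2 and Pln on neither; with median centring Tnni3 (-1.19), Ryr2 (0.25) and Pln (0.39) are called on the cobalt arrays.

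Ryr2 and Pln stayed near background. Ryr2 encodes the calcium release channel of the sarcoplasmic reticulum. Its tested probe gave -0.02, 0.25, 0.04 and 0.30 on the saline arrays and -0.16, 0.15, -0.06 and -0.05 on the cobalt arrays, with signals of 54 to 104 scanner units in both channels. With an offset of 50 in the background correction, ratios of signals this low lie near 0 by construction. The software's log ratio gave -0.66, 2.57, 0.19 and 2.61 on the saline arrays and -0.77, 0.14, -0.18 and -0.94 on the cobalt arrays. On saline 12 h and 48 h only the hypoxia channel was well above background. With the offset, the ratios there amount to 1.19-fold and 1.23-fold, and are not bounds on the change. Neither the saline estimate, 0.14 ± 0.07 (SE), adjusted p 0.110, nor the average was called. The second Ryr2 probe was well above background on 1 array.

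Pln encodes phospholamban, the brake on the sarcoplasmic calcium pump. Its ratio lay between -0.10 and 0.26 on the 8 arrays, with signals of 60 to 132 scanner units. The average was 0.10 ± 0.05 (SE), adjusted p 0.130. Nppa encodes atrial natriuretic peptide, a hormone that atrial muscle stores in quantity. Its probe read 54 to 80 scanner units over backgrounds of 40 to 50, was well above background on 3 arrays in either channel, and was not tested. Its ratios lay between -0.11 and 0.12. On the arrays where Myh6 and Myl7 were brightest, saline 12 h and 48 h, the Nppa ratios were 0.12 and 0.06. With the software's log ratio, which lacks the offset, Nppa was at 1.12, 0.70, 0.65 and 0.33 on the saline arrays. On the cobalt arrays, with the dyes swapped, it was at -0.89, -0.86, -1.19 and -1.14. Pretreatment and dye cannot be told apart in these signs.

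Cox8b encodes a small subunit of cytochrome c oxidase found in heart, skeletal muscle and brown fat. Of the tested members, its mRNA probe had the largest average over the 8 arrays, and it was downward, while Myl7, Myh6 and Tnnt2 had larger ratios on single arrays. The mRNA probe gave -2.65, -2.81, -1.48 and -1.60 on the saline arrays and -2.52, -1.10, -2.55 and -1.58 on the cobalt arrays. All 8 were below 0 and the 2 sets overlapped. The average was -2.04 ± 0.20 (SE), 4.10-fold lower under hypoxia, adjusted p 0.000162. It fell by 2.13 on the saline and by 1.94 on the cobalt arrays, with adjusted p 0.000449 and 0.00210. The difference between pretreatments was 0.20 ± 0.40 (SE), adjusted p 0.743.

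This signal was measurable in both channels on every array. In the 0 h channel it read 667, 623, 578 and 728 scanner units on the saline arrays, in green. On the cobalt arrays, where that channel was in red, it read 2108, 2359, 2131 and 2213. In the hypoxia channel it read 186, 128, 346 and 502, and then 113, 292, 113 and 214. In the average and within each pretreatment, direction and call of this probe were the same under every alternative that was run.

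Both tag probes were dim. Their averages were -0.12 ± 0.03 (SE), adjusted p 0.00900, for A_44_P689394 and -0.09 ± 0.03 (SE), adjusted p 0.0599, for A_44_P689395, and turned to 0.01 and 0.09 with median centring. The first was not well above background in the hypoxia channel of any array. On the saline arrays only its 0 h channel was, and the ratio was furthest from 0 at 6 h, at 1.22-fold lower under hypoxia. A_44_P689395 cleared background under hypoxia on 4 of 4 saline and 1 of 4 cobalt arrays. With an offset of 50 in the background correction, ratios of signals this low lie near 0 by construction, so no test between the tag probes and the mRNA probe is given. Since they lie on the other strand, they do not measure the message that the mRNA probe reads.

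**Figure D4:**
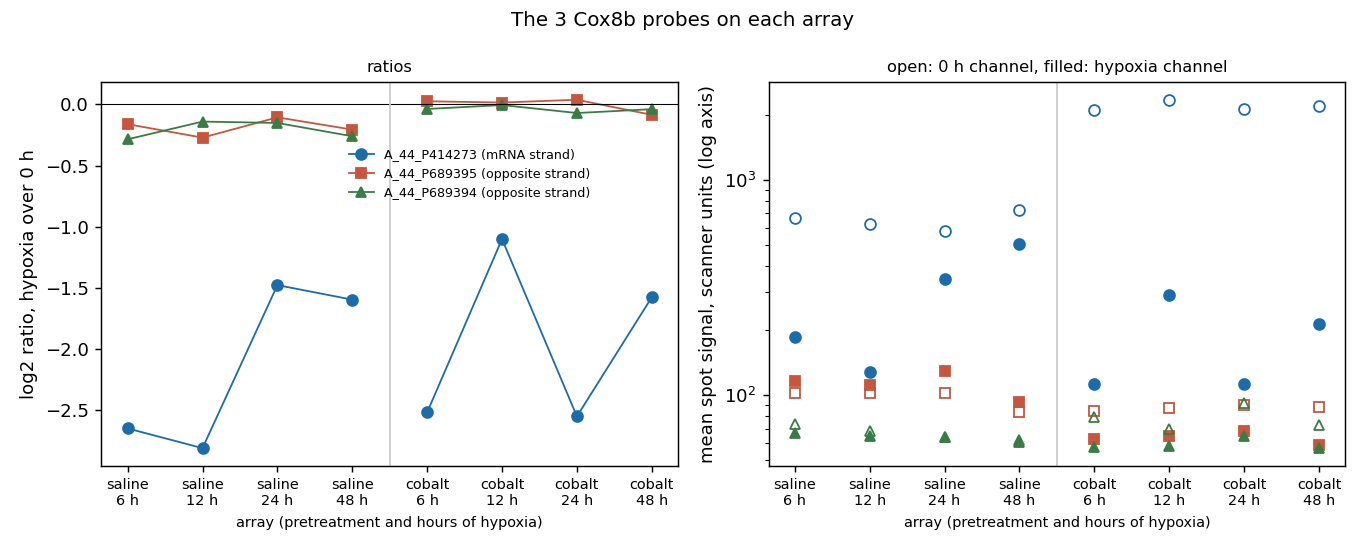
Left, log2 ratio of hypoxia over 0 h for the 3 Cox8b probes on each array; right, mean spot signal in scanner units on a log axis, with open markers for the 0 h channel and filled markers for the hypoxia channel. The mRNA probe lies between -2.81 and -1.10 on all 8 arrays, and the opposite-strand probes lie between -0.29 and 0.04 at low signal.

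The genes of the set did not move as 1 block. After centring each gene within its pretreatment, Myh6 and Myl7 correlated at 0.996 over the 8 arrays, and Myl4 with either at 0.88. Tnnt2 correlated with Myl7 at 0.68 and Tnni3 with Myl7 at 0.81. Ryr2, at signals near background, correlated with Myh6 at 0.80 and with Myl7 at 0.79, and Pln with Myl7 at 0.35. For Cox8b and Myl7 the value was 0.03, and for Actc1 and Myl7 0.38. These are descriptions over arrays that share 0 h RNA, and the saline 12 h and 48 h arrays weigh on each. Taking the brightest probe of each of the 9 genes, 5 had a ratio over 1 on saline 12 h and 5 on saline 48 h, against at most 1 on any other array. Of all tested probes, 3.57% were over 1 on saline 12 h and 2.03% on saline 48 h.

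Late against early hypoxia, 24 and 48 h against 6 and 12 h, gave no called probe among the 12 nor among all probes (0% called). The same held for the difference of that contrast between the pretreatments (0% called). At an unadjusted p under 0.05 limma found 13.2% and 5.26% of all probes in these contrasts. The late minus early estimate was 0.23 ± 0.82 (SE) for Myh6 and 0.47 ± 0.32 (SE) for the Cox8b mRNA probe. The high arrays of Myh6 and Myl7 fell on both sides of this split.

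By correlation with the median centred profile of the 9 genes, the most similar of 1913 other named genes were Csrp3 (r = 0.98), Ckmt2 (r = 0.96), Myh7 (r = 0.95), RT1-CE10 (r = 0.91) and Trip13 (r = 0.91), over 8 arrays and as a description. Csrp3 encodes a muscle LIM protein of the Z-disc, Ckmt2 the mitochondrial creatine kinase of striated muscle and Myh7 the beta myosin heavy chain. Csrp3 was at 1.13 and 2.14 on saline 12 h and 48 h and within 0.16 of 0 on the other 6 arrays. Ckmt2 was at 0.77 and 2.22 there, with 0.61 on cobalt 12 h. Myh7 was at 2.07 and 2.89 there and between -0.47 and 0.20 elsewhere, with the shared 27 bases noted for its probe. Trip13 was at 0.41 and 0.91 there and between -0.45 and -0.04 elsewhere. Likeness here means the same order of arrays, not the same direction. RT1-CE10, a class I histocompatibility gene, was at -3.06, -2.68, -2.91 and -0.62 on the saline arrays, and its saline estimate was lower, at -2.32 ± 0.32 (SE), adjusted p 0.000544.

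A wider list of 42 other heart muscle genes, chosen with earlier results of these data known, had 38 on the array and 30 tested. In the average 6 were called higher and 3 lower, with a median of 0.11 over the list, against -0.01 over all probes. These 9 of 30 are a share near the 32.3% of all probes. Its medians were 0.21 and 0.34 on saline 12 h and 48 h and between -0.01 and 0.14 on the other arrays. Fhl2, a LIM-domain protein, was higher at 1.01 ± 0.07 (SE), adjusted p 2.54e-05. Atp2a2, the cardiac calcium pump, was higher at 0.37 ± 0.06 (SE), adjusted p 0.00143. Cox6a2, a muscle subunit of cytochrome c oxidase, was higher at 0.31 ± 0.08 (SE), adjusted p 0.0148. With median centring 14 genes of this list were called higher and 3 lower in the average, where calls over all probes also rose, to 47.7%.

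Of 12 genes of sarcoplasmic calcium handling, 3 were called higher and none lower in the average, where 14.9% and 17.4% of all probes were, so the number called is no larger a share than the 32.3% of all probes. They were Atp2a2, the junctional protein Jph2 at 0.25 ± 0.06 (SE) and the calcium store protein Casq2 at 0.25 ± 0.07 (SE). On the saline arrays Jph2 was lower, at -0.28 (adjusted p 0.0190), and on the cobalt arrays higher, at 0.79.

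The atrial and ventricular marker lists divided unevenly. Of 7 atrial markers, 3 of them members, 5 were tested, and 1 was called higher in the average, Myl4, where 14.9% of all probes were. Sln, the atrial inhibitor of the calcium pump, was at 1.49 on saline 48 h and between -0.24 and 0.21 on the other arrays, and was not called. Nor were the averages of the atrial connexin Gja5 and the potassium channel Kcnj3, at 0.06 and 0.04, although both were called within each pretreatment. Gja5 was lower on the saline arrays, at -0.29 (adjusted p 0.0330), and higher on the cobalt arrays, at 0.41 (adjusted p 0.0145). Kcnj3 was at -0.40 (adjusted p 0.0159) and 0.48 (adjusted p 0.0134). With median centring these signs turned, to 0.79 and -0.66 for Gja5 and to 0.11 and -0.45 for Kcnj3. Of 5 ventricular markers 3 were tested. Myl2, the ventricular regulatory light chain, lay between -0.20 and 0.26 on all 8 arrays. Myl3 and Irx4 were well above background on no array. Hey2 was lower, at -0.15 ± 0.04 (SE). The only ventricular marker high on saline 12 h and 48 h was Myh7.

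Other muscle and other cell types were followed with the same fit, and the sign of each list's median in the average held under the 4 other scalings that were run. The counts in the average stand beside 14.9% of all tested probes called higher and 17.4% called lower. Of 19 skeletal muscle genes 13 were tested, 5 called higher and 1 lower in the average, with a median of 0.09. The fast light chain Myl1 was at 0.56 ± 0.08 (SE), skeletal actin Acta1 at 0.55 ± 0.10 (SE) and the myogenic factor Myog at 0.24 ± 0.06 (SE), all called. With the software's log ratio, Myl1 was at 2.75 and Acta1 at 1.40. Of 12 smooth muscle genes 10 were tested and 9 were called higher, with a median of 1.16. Des, the desmin gene of all muscle, was at 2.02 ± 0.08 (SE), Actg2 at 1.76 ± 0.08 (SE) and Tpm2 at 1.45 ± 0.09 (SE). The smooth muscle medians were 0.65 to 1.19 on the saline and 1.44 to 1.70 on the cobalt arrays, with this normalization. Their order between the pretreatments turned with median centring, where the median of the estimates was 1.77 on the saline and 0.52 on the cobalt arrays, against 1.03 and 1.49 with loess.

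Brown fat also expresses Cox8b. Of 11 fat genes 6 were tested, 3 called higher and none lower in the average, with a median of 0.32. Of all probes 14.9% were called higher and 17.4% lower there. Lipe, Cfd and Fabp4 were at 0.50, 0.72 and 0.75. Lipe was at -0.20 on the saline arrays, not called, and at 1.19 on the cobalt arrays, adjusted p 0.000290, and the difference of 1.39 was called (0.17 and 0.42 with median centring). On the cobalt arrays 3 genes of the list were called higher and 2 lower, Cidea at -0.45 and Dio2 at -0.36. Of all probes 8.57% were called higher and 12.0% lower on these arrays. Ucp1, which defines brown fat, was well above background on at most 3 arrays and was not tested, and Elovl3 and Lep on none. Among 8 lung epithelium genes 4 were called lower and none higher in the average. Among the 4 were the alveolar type I markers Aqp5, Pdpn and Ager, at -0.85, -0.75 and -0.73. On the saline arrays 7 of the list were called lower and 1 higher, where 20.2% and 20.6% of all probes were. On the cobalt arrays 1 was called lower and 3 higher, where 12.0% and 8.57% of all probes were. With loess alone, Aqp5, Pdpn and Ager were not called on the cobalt arrays, and with scaling between arrays added Aqp5 was (limma, adjusted p 0.0468). The median of the whole list was -1.52 on saline 12 h, the lowest of the 8 arrays, and -0.74 on saline 48 h. With median centring the list's saline median turned from -1.01 to 0.29, and its cobalt median moved from -0.04 to -1.20. Aqp5, Pdpn and Ager were then called lower on the cobalt arrays, at -1.80, -1.50 and -1.61. On the saline arrays they were then at 0.20, -0.19 and 0.16, not called. The part of cell composition in the members' ratios was not tested.

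**Figure D5:**
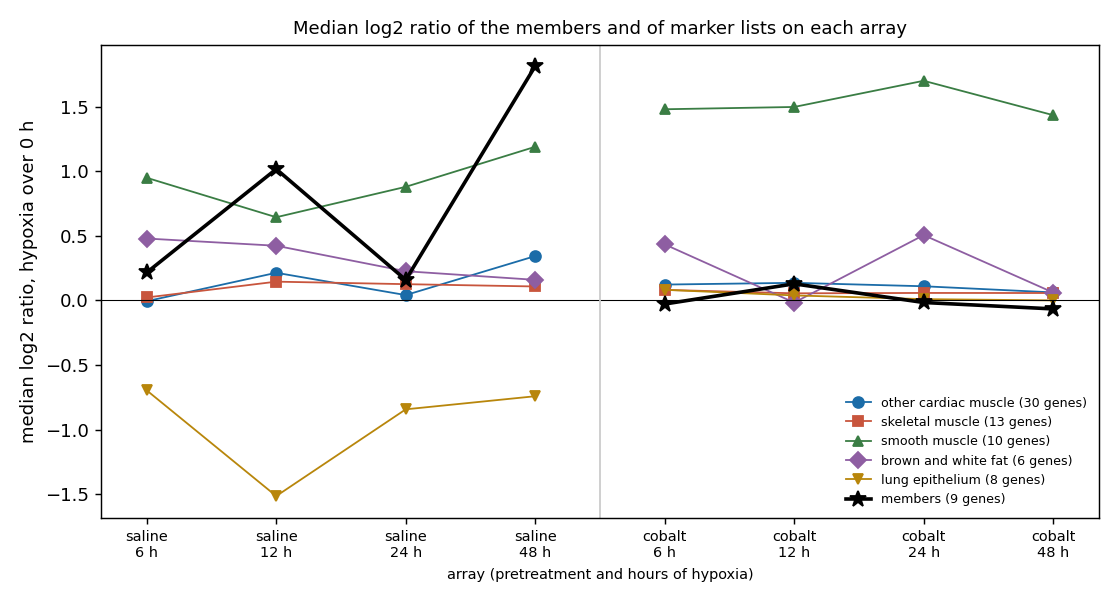
Median log2 ratio of hypoxia over 0 h on each array for the 9 tested members (stars) and for 5 marker lists, with the number of tested genes in brackets. The member median is 1.02 on saline 12 h and 1.82 on saline 48 h and between -0.07 and 0.22 elsewhere, while the smooth muscle median is above 0.6 on every array and the other heart muscle list stays below 0.4.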

How the data were processed

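Scanner files come from Agilent Feature Extraction 9.5.1.1, per the file headers, and give each spot's mean signal and local background as intensity. The deposited LogRatio is log10 of the red-to-green ratio, background-subtracted and dye-normalized by that software, per the file headers. The deposited series matrix holds log2 ratios, whose scale and direction (hypoxia over 0 h) were read by comparison with LogRatio.

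Each array has 45018 spots, of which 208 to 294 were marked as outliers and dropped. Background correction was normexp (offset 50), followed by loess, in limma 3.58.1 (R 4.3.3; package data.table, version 1.17.8). A probe was tested where 4 or more of 8 arrays had a channel well above background and none a missing value (28419). The number of arrays limits the precision. RefSeq gene names of GRCr8, used for names only, matched 10735 of 41012 probes by accession, 5512 by symbol, 1217 by gene number and 3719 by synonym; 19829 kept the name on file. The fit, with a variance trend, gave the hypoxia response in the average and in each pretreatment, their difference, and late against early. Probe pairs were compared by an exact sign-flip permutation test.

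The members, lists and the rule for named genes (all members; 3 non-members with the lowest p in the average per list; the 5 most alike in profile) were chosen with earlier results of these data known. Ucp1 and other genes named from lists outside that rule were picked after their values were seen. On simulated data, 79.5% of 200 changed probes were recovered at a log2 change of 0.5 in the average, 88% at 1 on the saline arrays and 78.5% at 1 in the difference. The saline and cobalt arrays of 1 duration, centred, correlated at 0.20, -0.14, -0.19 and 0.44 for 6, 12, 24 and 48 h. Those of 48 h thus deviated partly together, but the sign differed between durations, and durations were not treated as pairs. Alternatives were other background corrections, scalings, filters and array sets. Protein sequences and a genome were not used here.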

Additional observations from a re-analysis of the deposited data

Results flagged for a closer look

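For 3 of the 12 tested member probes, the difference between the cobalt and the saline response passed the test, as for 30.5% of all tested probes. Tnnt2 stood at -2.09 (limma, adjusted p 0.00815), with 4 of 4 saline arrays above all 4 cobalt arrays. Tnni3 stood at -1.46 (adjusted p 0.00797), also with 4 of 4 saline arrays above all cobalt arrays. The opposite-strand Cox8b probe A_44_P689394 stood at 0.17 (adjusted p 0.0443), where the spot cleared background under hypoxia on 0 of 8 arrays, and the call was lost under 12 alternatives. Pretreatment cannot be told apart from slide, scan and dye orientation in these values.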

How the results depend on the processing

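The main limits are 1 array per group, 0 h RNA shared by the 4 arrays of a pretreatment, and signals near background for Myh6, Myl7, Ryr2, Pln, Nppa and the Cox8b tag probes. Of 888 alternative values for single member probes, 799 kept direction and side of the threshold, 38 lost a call, 14 gained one and 37 changed sign. The cause of each change was not tested.

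Median centring in place of loess gave 22722 calls on the cobalt arrays and 22215 in the difference between pretreatments, and 13565 in the average and 16460 on the saline arrays. The members had 6 calls on the cobalt arrays and 10 in the difference, among 12 tested probes, where 80% and 78.2% of all probes were called. Several signs changed. In the average the tag probes A_44_P689395 and A_44_P689394 were at 0.093 and 0.010, and Ryr2 on the saline arrays was at -0.022. On the cobalt arrays the Actc1 probes were at -0.014 and -0.14, Myh6 at 0.18, Myl4 at -0.14, Ryr2 at 0.25 and the tag probes at 0.33 and 0.39. In the difference the Actc1 probes were at -1.53 and -1.62, Ryr2 at 0.27, Pln at 0.30 and the Cox8b mRNA probe at -1.09.

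With the software's log ratio Myl7 on the cobalt arrays was at -0.17, as with the series matrix at -0.17, and the 2 Cox8b tag probes differed by 0.67 with an adjusted exact permutation p of 0.0208. Without background subtraction, on the cobalt arrays, Tnnt2 was at 0.010, Myl7 at -0.035 and A_44_P689395 at 0.012. With scaling between arrays Tnnt2 there was at 0.037 and A_44_P689395 at 0.0024, and the Cox8b mRNA probe was at -0.53 in the difference. The strict filter takes both channels well above background on all 8 arrays. Of the members it kept only Tnnt2, Tnni3, both Actc1 probes, Myl4 and the Cox8b mRNA probe. All 6 were called on the saline arrays, so no member that it tested lost its call there.

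With single arrays left out, member calls ranged from 6 to 8 in the average, 6 to 10 on the saline arrays (lowest without saline 12 h), 2 to 3 on the cobalt arrays and 2 to 4 in the difference. Calls over all probes ranged from 6573 to 8963, 9063 to 11409, 2618 to 6511 and 6205 to 8644 in the same order. The cobalt calls were 3519, 2834, 2618 and 3840 without the cobalt 6, 12, 24 and 48 h array. For late against early they ranged from 0 to 4, and for its difference between pretreatments from 0 to 41. On the cobalt arrays the sign changed for 4 probes near 0: Tnnt2 ranged from -0.19 to 0.29, Myl7 from -0.013 to 0.10, Ryr2 from -0.090 to 0.014 and A_44_P689395 from -0.015 to 0.026. In the difference the Cox8b mRNA probe ranged from -0.082 to 0.42.

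An alternative chosen after seeing the data left out saline 12 h and 48 h together. It left 5887 calls on the saline arrays (20.7%) and 5320 in the difference, with 3 and 1 member calls. Signs changed in the average for Myh6 (-0.0023), Myl7 (-0.013) and Ryr2 (-0.0096), on the saline arrays for Myl7 (-0.072), and in the difference for Myl4 (0.024), Myl7 (0.12) and Pln (0.015).

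Duration as a replicate block, though the arrays are not shown to be paired, gave 9297, 11763, 5928 and 8735 calls and 6, 10, 3 and 2 member calls in the same order, and ended 1 member call in the difference, that of the Cox8b tag probe A_44_P689394.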
